A study of Mus musculus with 4 samples.

Results

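The TALE homeobox genes described here are Meis1, Meis2, Meis3, Pbx2, Pbx3, Pbx4, Pknox1 and Pknox2, 8 of the 55426 rows of a deposited gene expression table. They were chosen by gene name, with earlier results of these data known, and each name matched 1 row. Expression was measured by sequencing poly(A) RNA from day 6 mouse retinal organoids, aggregates of pluripotent stem cells grown towards early retina. All 4 libraries came from 1 line, labelled Rx:GFP Mettl3 KO, which carries a Dox-inducible HA-METTL3 and a GFP reporter named after Rx (Rax, an eye-field gene), and all were grown with a compound labelled AGN at 0.1 µM. The 2 untreated libraries received no Dox, and the 2 Dox libraries received 2 µg/ml of doxycycline (Dox) for 6 days. METTL3 is the enzyme that places N6-methyladenosine (m6A) on messenger RNA. The sample titles also carry the letters EV, which the labels do not explain, so what the Dox libraries received besides Dox cannot be read from them. Nothing in the labels says that the 2 libraries of a group came from separate cultures or that the line is 1 clone, so p-values measure only the spread between these libraries, which may be technical.

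TALE homeodomain proteins carry a 3-amino-acid loop extension between the first and second helix of the homeodomain. MEIS and PKNOX (also called PREP) proteins bind PBX proteins through their amino-terminal regions, and the pairs bind DNA together, often with HOX or other homeodomain proteins as a further partner. Binding by MEIS or PKNOX also holds PBX in the nucleus and protects it from degradation. In the vertebrate eye MEIS1 and MEIS2 are known from the optic vesicle and from retinal progenitors, where they act upstream of Pax6 and of genes that pattern the retina.

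Each of the 8 genes carries the loop and the part of the homeobox that follows it. The stretches below run from the codons of the loop to the start of the part of the third helix that contacts DNA, 84 bases in each gene, 5′ to 3′ on the coding strand of GENCODE M21 transcripts (GRCm38). The 9 capitals at the start are the loop codons, and the 12 capitals at the end lie in the third, DNA-contacting helix.
Meis1: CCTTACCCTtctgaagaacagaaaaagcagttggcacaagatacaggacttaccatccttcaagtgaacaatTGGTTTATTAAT
Meis2: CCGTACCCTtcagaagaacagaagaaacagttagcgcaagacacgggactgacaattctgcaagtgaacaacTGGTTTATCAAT
Meis3: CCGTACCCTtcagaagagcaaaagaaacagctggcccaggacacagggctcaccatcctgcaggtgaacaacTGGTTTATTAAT
Pknox1: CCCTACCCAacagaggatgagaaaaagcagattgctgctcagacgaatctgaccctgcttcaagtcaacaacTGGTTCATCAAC
Pknox2: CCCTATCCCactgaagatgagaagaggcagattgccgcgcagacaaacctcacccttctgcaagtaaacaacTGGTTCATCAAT
Pbx2: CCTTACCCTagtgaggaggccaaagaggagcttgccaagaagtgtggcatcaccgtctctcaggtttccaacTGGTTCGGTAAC
Pbx3: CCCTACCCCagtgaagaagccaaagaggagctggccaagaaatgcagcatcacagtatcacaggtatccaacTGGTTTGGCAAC
Pbx4: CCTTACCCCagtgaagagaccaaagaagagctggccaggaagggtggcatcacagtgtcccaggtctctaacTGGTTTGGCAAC

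Within a class the stretches were alike to a similar degree. Identity was 82.1% to 84.5% among the 3 Meis genes, 83.3% to 84.5% among the 3 Pbx genes and 82.1% between the 2 Pknox genes. Meis and Pknox stretches were 64.3% to 70.2% identical to each other. Pbx stretches were 51.2% to 61.9% identical to Meis and 53.6% to 60.7% identical to Pknox. In every gene the stretch is divided by 1 intron, which falls after base 74 in the Meis and Pknox genes and after base 63 in the Pbx genes.

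On GRCm38 (mm10, the build named in the submitters' processing notes) the genes lie at chr11:18879817-19018985 (Meis1, minus strand), chr2:115863064-116065839 (Meis2, minus), chr7:16175090-16186504 (Meis3, plus), chr17:34591266-34597400 (Pbx2, plus), chr2:34171457-34373142 (Pbx3, minus), chr8:69832491-69872292 (Pbx4, plus), chr17:31564734-31607693 (Pknox1, plus) and chr9:36890982-37147407 (Pknox2, minus). The stretches printed above lie in exons 9 and 10 of the longest coding transcript for Meis1, Meis2, Meis3 and Pknox1. They lie in exons 11 and 12 for Pknox2, and in exons 5 and 6 for each Pbx gene. The exons of Meis2, Meis3, Pbx3, Pbx4 and Pknox2 overlap no other annotated gene. Exons of Meis1 overlap Gm37818 on the same strand, listed at 0.04 to 0.44 FPKM, and the antisense gene Gm16140, listed at 0 in all 4 libraries. Exons of Pbx2 overlap Gpsm3 on the same strand, listed at 2.25 to 2.8 FPKM. Exons of Pknox1 overlap the antisense gene AC166172.4, listed at 0.32 to 0.57 FPKM, and whether counting used strand is not given in the sources used here.

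The values are FPKM (fragment numbers corrected for transcript length and sequencing depth), so levels of different genes can be set side by side. A depth of 31800000 to 35000000 fragments per library was fitted from the steps between low values. Pearson's r of log2(FPKM + 1) over 13931 tested genes (a correlation across genes, whose values are not independent) was 0.990 between the untreated libraries, 0.987 between the Dox libraries and 0.960 to 0.966 between groups. Mettl3 was listed at 40.33 and 37.98 FPKM without Dox and at 45.2 and 46.37 FPKM with Dox. The change did not pass the threshold (adjusted p = 0.122 in limma). FPKM counts RNA, so these values show neither METTL3 protein nor which copy of the gene the RNA came from. Tests were run with limma on log2(FPKM + 1) over every gene averaging 1 FPKM or more, at a threshold of 0.05 after Benjamini-Hochberg adjustment. Of these, 619 (4.44%) were called higher and 678 (4.87%) lower with Dox. Leaving out any 1 of the 4 libraries (untreated replicate 1 or 2, Dox replicate 1 or 2) reduced the calls to between 262 and 320 higher and between 331 and 377 lower.

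With Dox, Meis1, Meis2 and Pknox2 rose, and the other 5 genes did not pass the threshold. All 8 genes passed the filter on low values and were tested. The 3 called genes of 8 stand against 4.44% of all tested genes called higher, and 0 of 8 were called lower, against 4.87% (9.31% were called in either direction). Because the 8 were chosen with earlier results known, these shares are a description and not a test. For 8 genes, 0 called lower is near the share of all genes. An unadjusted p below 0.05 in limma was reached by 5 of the 8, of which 0 were lower. The share of all tested genes at that level was not counted. In 6 of the 8 genes the lower Dox library exceeded the higher untreated one, as it did in 26.5% of all tested genes. The median log2 fold change of the 8 was 0.21, against -0.0042 over all tested genes. Since these are bulk libraries, fewer cells of a type and less RNA per cell cannot be told apart.

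**Figure D1:**
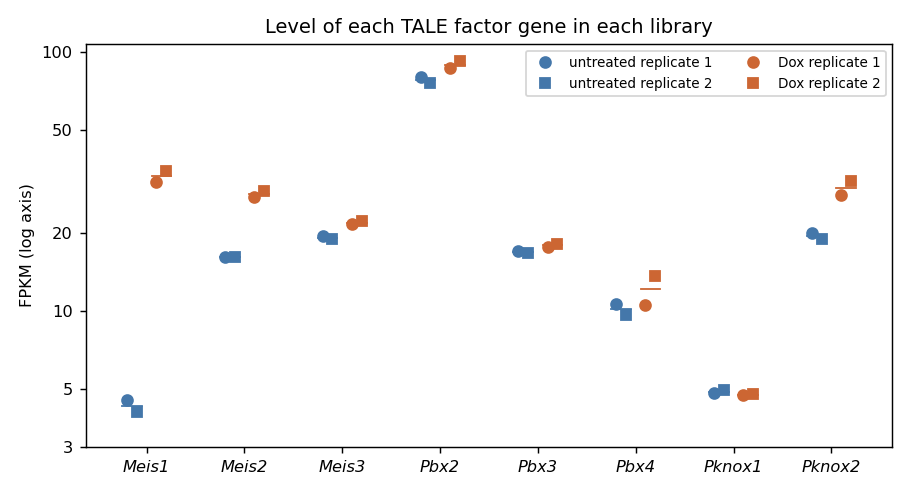
FPKM of each of the 8 genes (log axis) in each library, with untreated libraries in blue, Dox libraries in orange, replicate 1 as circles, replicate 2 as squares and short lines at the group means. Meis1 moves from the lowest of the 8 untreated levels (4.1 and 4.56 FPKM) to 31.45 and 34.84 FPKM, while Pknox1 stays between 4.75 and 4.98 FPKM.

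Meis1 encodes the founding MEIS protein, a cofactor that is needed for eye growth and patterning in vertebrates. Its level was 4.56 and 4.1 FPKM in untreated replicates 1 and 2, and 31.45 and 34.84 FPKM in Dox replicates 1 and 2. The Dox libraries were far above the untreated ones, and the gap was many times the spread within either group. The group means were 4.33 ± 0.325 FPKM and 33.1 ± 2.40 FPKM (SD, n = 2 each), a ratio of 7.65. On the log2(FPKM + 1) scale the fold change was 2.68 (SE 0.0967, limma adjusted p = 1.17e-04), which placed Meis1 at rank 46 of the 13931 tested genes by log2 fold change.

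Meis2 encodes a close paralogue that is also expressed in the developing retina, midbrain and ventral telencephalon. Untreated replicates 1 and 2 had 16.15 and 16.23 FPKM, and Dox replicates 1 and 2 had 27.66 and 29.19 FPKM. The untreated replicates were nearly equal, and neither Dox library came close to them. The means were 16.2 ± 0.0566 and 28.4 ± 1.08 FPKM (SD, n = 2 each), a ratio of 1.76. On the log2 scale this was an increase of 0.77 (SE 0.0725, limma adjusted p = 0.00264). Meis2 ranked 379 of all tested genes by log2 fold change.

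Meis3, the third MEIS gene, is best known from the hindbrain. It was listed at 19.54 and 18.93 FPKM without Dox and at 21.71 and 22.25 FPKM with Dox. The groups did not overlap, but the difference was small, with a ratio of means of 1.14. The log2 fold change was 0.18 (95% interval 0.0048 to 0.36, adjusted p = 0.200 in limma) and did not pass the threshold. The interval lies wholly below those of Meis1 (2.44 to 2.92) and Meis2 (0.59 to 0.96), although the differences between genes were not tested.

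Pknox2 and Pknox1 encode the 2 PREP proteins, which compete with MEIS for PBX. Pknox2 reached 20.01 and 19.06 FPKM in untreated replicates 1 and 2, against 28.04 and 31.71 FPKM in Dox replicates 1 and 2. Both Dox values were above both untreated values, although the Dox replicates were further apart than the untreated ones. The ratio of means was 1.53 and the log2 fold change 0.59 (SE 0.0873, limma adjusted p = 0.0141). The call depended on the setting. It was lost without the filter on low values (adjusted p = 0.0731), and also without untreated replicate 1 (0.0769), untreated replicate 2 (0.104) or Dox replicate 2 (0.0850), in limma fits that leave 1 library in a group, assumed to vary like the other group. Without Dox replicate 1 it passed (0.0437).

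Pknox1, the broadly expressed PREP gene, was listed at 4.83 and 4.98 FPKM without Dox and at 4.75 and 4.8 FPKM with Dox. The Dox libraries were marginally the lower pair. The log2 fold change was -0.03, with a 95% interval of -0.28 to 0.21 (adjusted p = 0.880 in limma), the only negative value of the 8. Per library the ratio of Pknox2 to Pknox1 was 4.14 and 3.83 without Dox and 5.90 and 6.61 with Dox. The groups of ratios did not overlap, and the exact two-sided permutation p was 0.33, the smallest that 2 libraries against 2 allow.

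The Pbx genes encode the partners of MEIS and PKNOX. Pbx2, a broadly expressed PBX gene, had the highest level of the 8 in every library, at 79.87 and 76.14 FPKM untreated and 86.74 and 91.91 FPKM with Dox. The groups did not overlap, with a ratio of means of 1.15 and a difference of 0.19 on the log2 scale (95% interval 0.022 to 0.36, adjusted p = 0.165 in limma). Pbx3, a PBX gene best known from the nervous system, was listed at 17.05 and 16.74 FPKM untreated and at 17.65 and 18.25 FPKM with Dox. Its log2 fold change was 0.08 (95% interval -0.10 to 0.27, adjusted p = 0.561). Neither gene passed the threshold, and the upper ends of both intervals lie below the fold change of Pknox2.

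Pbx4, a PBX gene best known from the testis, was the one gene of the 8 whose groups overlapped. It was listed at 10.64 and 9.7 FPKM untreated, and at 10.56 FPKM in Dox replicate 1 and 13.74 FPKM in Dox replicate 2. The log2 fold change was 0.23 (95% interval -0.12 to 0.57, adjusted p = 0.391 in limma). It was 0.05 without Dox replicate 2 and 0.40 without Dox replicate 1, so its size rests on Dox replicate 2. The interval does not exclude a change as large as that of Pknox2 at its lower bound of 0.37.

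**Figure D2:**
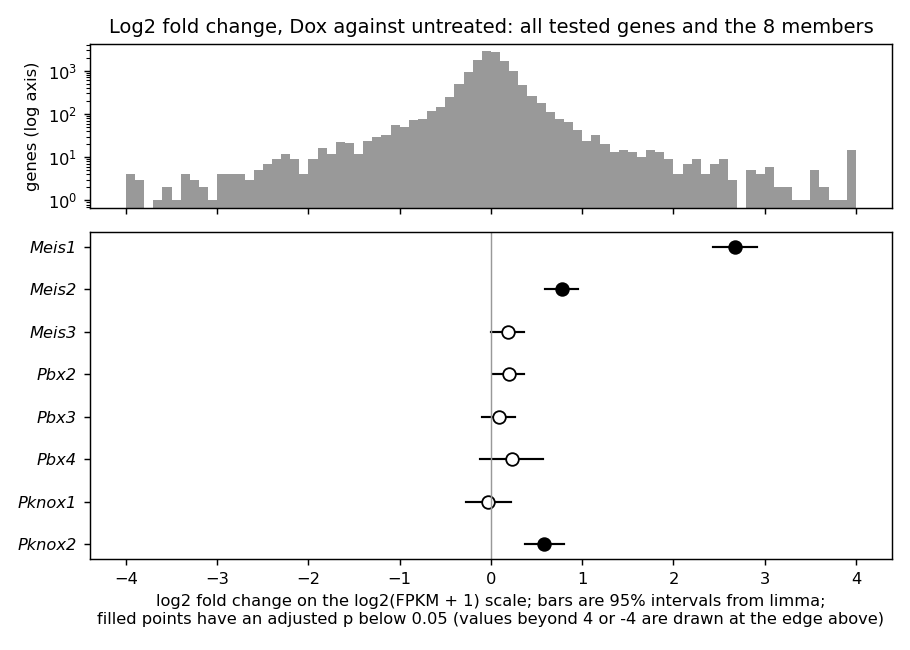
The upper panel counts all 13931 tested genes (log axis) by log2 fold change, and the lower panel gives each of the 8 genes with its 95% interval from limma, filled where the adjusted p is below 0.05. Meis1 at 2.68 sits in the sparse right tail, Meis2 (0.77) and Pknox2 (0.59) on the right shoulder, and the other 5 genes lie between -0.03 and 0.23.

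**Figure D3:**
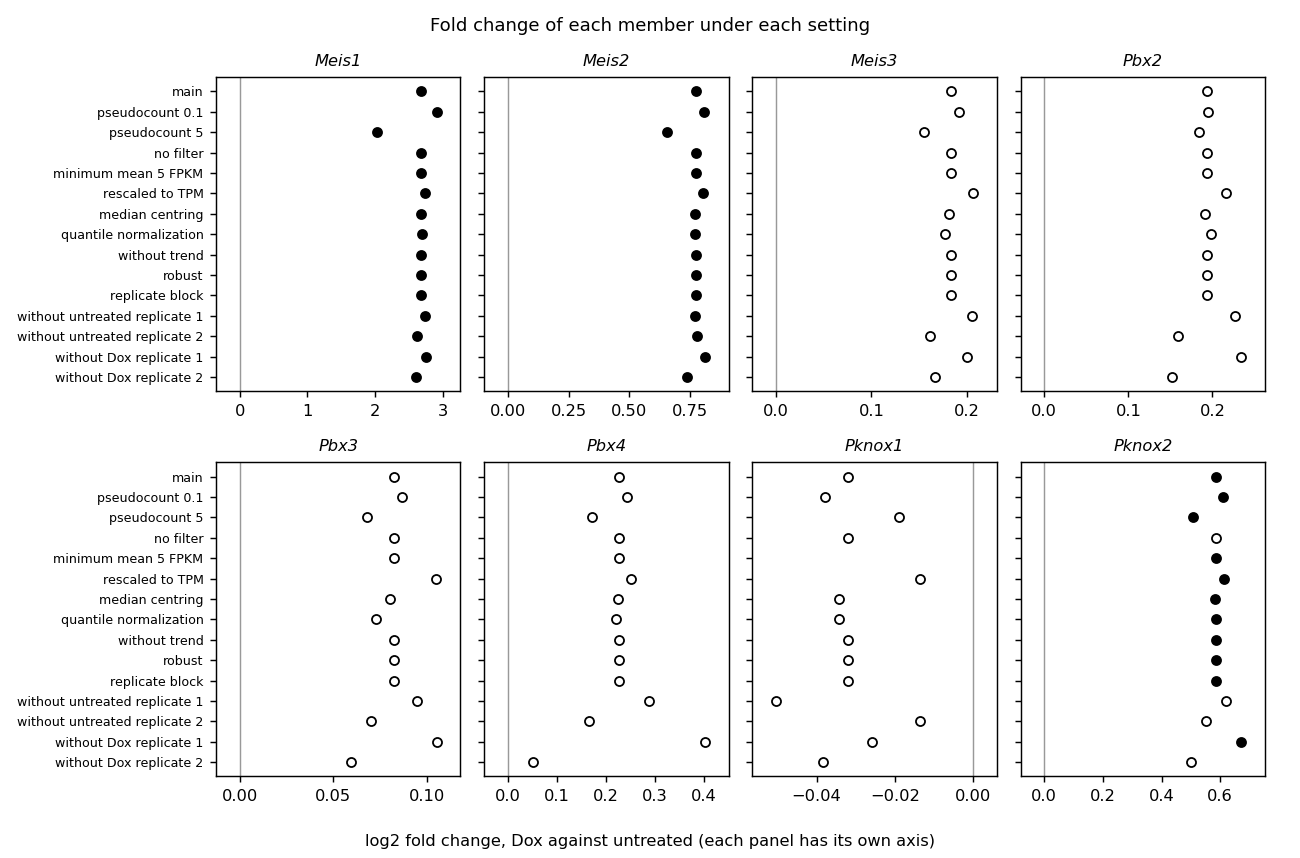
Log2 fold change of each of the 8 genes under the setting used here (main) and 14 alternatives, 1 panel per gene with its own axis, filled where the adjusted p in limma is below 0.05. Meis1 and Meis2 are filled throughout, Pknox2 is open in 4 settings, and Pknox1 has no point at a minimum mean of 5 FPKM, where it was not tested.

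The order of the levels differed between the groups mainly through Meis1. Without Dox the mean FPKM fell in the order Pbx2 (78.0), Pknox2 (19.5), Meis3 (19.2), Pbx3 (16.9), Meis2 (16.2), Pbx4 (10.2), Pknox1 (4.91) and Meis1 (4.33). In that order the libraries of Pknox2 and Meis3 overlapped and all other neighbours were separate. With Dox the order was Pbx2 (89.3), Meis1 (33.1), Pknox2 (29.9), Meis2 (28.4), Meis3 (22.0), Pbx3 (17.95), Pbx4 (12.2) and Pknox1 (4.78). Meis1 and Pknox2 overlapped, as did Pknox2 and Meis2, and the remaining neighbours were separate. Meis1 thus went from position 8 to position 2, while Pbx2 was first in both groups.

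The balance between the classes differed between the groups. The summed level of the 3 Meis genes was 40.25 and 39.26 FPKM without Dox and 80.82 and 86.28 FPKM with Dox, a ratio of means of 2.10. The Pbx sum, which covers Pbx2, Pbx3 and Pbx4 only (1 further Pbx gene was not analysed here), was 107.6 and 102.6 FPKM without Dox and 114.9 and 123.9 FPKM with Dox, a ratio of 1.14. The Pknox sum was 24.8 and 24.0 FPKM without Dox and 32.8 and 36.5 FPKM with Dox, a ratio of 1.42. In each class both Dox libraries exceeded both untreated ones, and the exact two-sided permutation p was 0.33 for each, the smallest this design allows. The Meis share of the summed FPKM of the 8 genes was 23.3% and 23.7% without Dox and 35.4% and 35.0% with Dox. The ratio of the Meis sum to the Pbx sum was 0.374 and 0.383 without Dox and 0.703 and 0.696 with Dox.

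Within the Meis class the leading gene changed as well. Meis3 made up 48.5% and 48.2% of the Meis sum without Dox, and 26.9% and 25.8% with Dox. Meis1 made up 11.3% and 10.4% without Dox, and 38.9% and 40.4% with Dox. Meis3 led in both untreated libraries and Meis1 in both Dox libraries. Meis2 made up between 33.8% and 41.3% in every library. Per library the ratio of Meis1 to Meis2 was 0.282 and 0.253 without Dox and 1.14 and 1.19 with Dox (exact two-sided permutation p = 0.33, again the smallest possible).

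**Figure D4:**
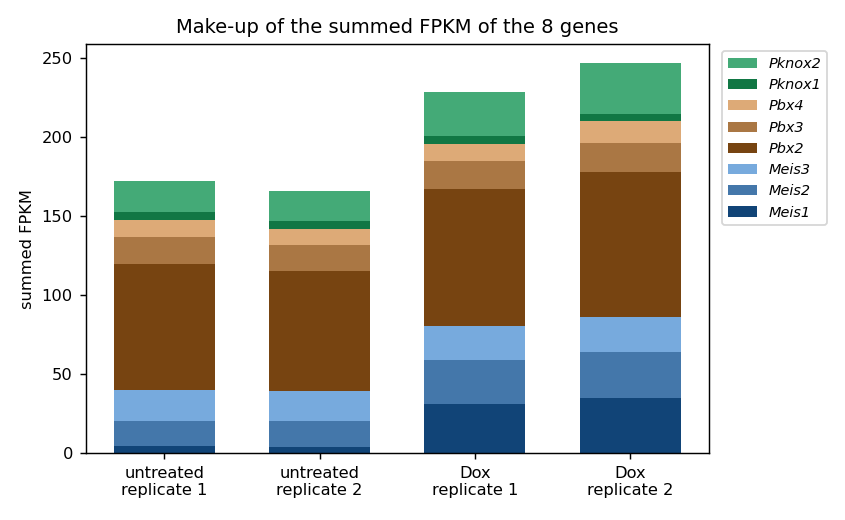
Stacked bars give the summed FPKM of the 8 genes in each library, with Meis genes in blue, Pbx genes in brown and Pknox genes in green. The total is 172.6 and 165.9 FPKM untreated and 228.6 and 246.7 FPKM with Dox, and the Meis1 segment at the base is the part that widens most.

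Other genes of the TALE superclass were set beside the 8. The list holds the Iroquois genes Irx1 to Irx6, the TGF-beta-induced repressors Tgif1 and Tgif2, and Mkx (Mohawk). Of its 9 genes 6 were tested, of which 0 rose and 4 fell (4.44% and 4.87% of all tested genes did). The median log2 fold change of these 6 was -1.54, against -0.0042 for all tested genes, and was -0.24 without the filter. Below the filter, Irx4 was listed at 0.16 and 0.15 FPKM without Dox and at 0.51 and 0.67 FPKM with Dox. Mkx had 1.33 and 0.48 FPKM without Dox and 0.58 and 0.57 FPKM with Dox, and Irx6 was at most 0.02 FPKM in any library. Irx1 fell from 7.76 and 5.25 FPKM without Dox to 0.28 and 0.52 FPKM with Dox, a log2 fold change of -2.41. The others that fell were Irx2 (-1.69), Irx5 (-1.64) and Irx3 (-1.44, named after its value was seen). The adjusted p-values of these 4 genes in limma ran from 8.16e-04 to 0.00260, and an unadjusted p below 0.05 upwards was reached by Tgif2 alone. The 2 others, Tgif1 (-0.09) and Tgif2 (0.24), did not pass the threshold. The Iroquois genes mark the diencephalon and other brain regions in early neural tissue.

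HOX proteins are the classical partners of PBX and MEIS on DNA, but HOX transcripts were close to absent in these libraries. All 39 Hox genes are in the table, and 0 of them reached the filter, so 0 were tested. The highest single Hox value was 0.09 FPKM. The summed level of all 39 was 0.18 and 0.2 FPKM without Dox and 0.12 and 0.31 FPKM with Dox.

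A short list of known partners and regulators of these proteins showed no called gene. It holds Pbxip1, a PBX-binding protein that blocks PBX from DNA, and Zfp462, a zinc finger protein that binds PBX. It also holds Crbn, the ubiquitin ligase receptor that takes MEIS2 as a substrate. The remaining genes are Tle4, a co-repressor linked to MEIS2, and Trib2, a pseudokinase linked to Meis1 in leukaemia. In limma 0 of the 5 passed in either direction, against 9.31% of all tested genes, and for 5 genes this is near that share. Zfp462 alone (1 of 5) had an unadjusted p below 0.05. Zfp462 was listed at 45.63 and 44.53 FPKM without Dox and at 30.37 and 39.65 FPKM with Dox (log2 fold change -0.37, adjusted p = 0.164). The median of the list was 0.03, and it was -0.11 without Dox replicate 2 and 0.17 without Dox replicate 1.

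Meis genes are known as targets of retinoic acid, and Meis2 was among the genes first found by their induction with it. Of 15 genes of retinoic acid synthesis and response 8 were tested, of which 5 rose and 1 fell (median log2 fold change 0.73). Of all tested genes 4.44% rose and 4.87% fell. Crabp1, a retinoic acid-binding protein gene, rose from 68.4 ± 4.56 to 331.7 ± 10.95 FPKM (SD, n = 2 each), or by 2.26 on the log2 scale (limma adjusted p = 1.04e-04). Aldh1a1, a retinaldehyde dehydrogenase gene of the dorsal retina, rose by 1.44. Further genes past the threshold were Stra6 (0.76), Rdh10 (0.70) and, downwards, Crabp2 (-0.61), named after their values were seen. Each of these 3 calls was lost in at least 3 of the 4 fits that left out 1 library (the largest limma adjusted p was 0.146 for Stra6, 0.119 for Rdh10 and 0.198 for Crabp2). The receptor gene Rarb and the catabolic Cyp26 genes were low in all 4 libraries. The receptor genes Rara (means of 8.6 FPKM without and 11.0 FPKM with Dox) and Rarg (4.04 and 3.84 FPKM) were higher and were not called. Whether retinoic acid has a part in the Meis changes was not tested. All 4 libraries were grown with the compound labelled AGN at 0.1 µM, and its effect on these genes was not tested. Without and with Dox, Rarb stood at 0.285 ± 0.00707 and 0.260 ± 0.0283 FPKM, and Cyp26a1 at 0.0850 ± 0.0212 and 0.190 ± 0.0141 FPKM. Cyp26b1 stood at 0.0950 ± 0.00707 and 0.215 ± 0.0636 FPKM, and Cyp26c1 was listed at 0 in all 4 libraries. Rarb and the Cyp26 genes were below the filter and were not tested.

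A list of 12 eye genes reported downstream of MEIS proteins in other work went both ways. All 12 were tested, of which 6 rose and 3 fell (4.44% and 4.87% of all tested genes did). Their median log2 fold change was 0.57. Bmp4, a dorsal retinal signal, rose from 5.14 ± 2.44 to 87.2 ± 11.1 FPKM (SD, n = 2 each), or by 3.90 on the log2 scale (limma adjusted p = 9.36e-04). Tbx5, a dorsal retinal transcription factor gene, was listed at 0 in both untreated libraries and at 7.33 and 9.8 FPKM with Dox. Not every gene of the list that rose is named, and dorsal genes were not compared with ventral ones. Notch pathway and ephrin genes of the list went both ways. The Notch ligand gene Jag1 (-1.56), the Notch target Hes5 (-1.18) and the ephrin gene Efnb1 (-1.02) fell, while the Notch target Hes1 (1.34) and the ephrin gene Efnb2 (0.83) rose and the receptor gene Notch1 did not pass the threshold (0.03, limma adjusted p = 0.942). These 6 are named after their values were seen. The call of Efnb2 was lost without either untreated library (limma adjusted p = 0.0862 and 0.109). Pax6, the best-known MEIS target in the eye, was listed at 127.76 and 118.86 FPKM without Dox and at 122.8 and 130.69 FPKM with Dox. Its groups overlapped (log2 fold change 0.04, adjusted p = 0.796).

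**Figure D5:**
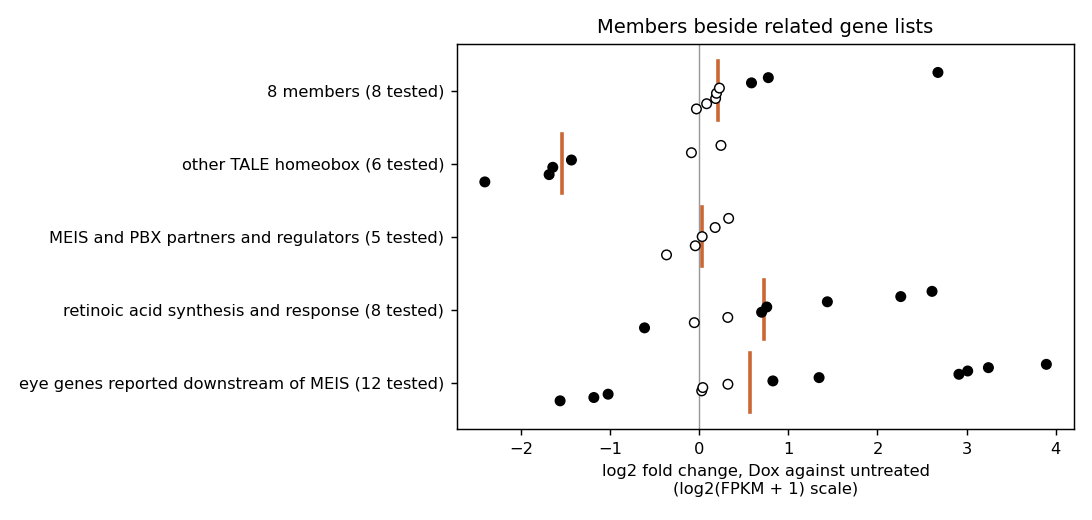
Each point is the log2 fold change of 1 tested gene, filled where the adjusted p is below 0.05, and the orange bars are the list medians. The called genes among the 8 members lie to the right and those of the other TALE genes to the left, with medians of 0.21 and -1.54. The point of Tbx5 depends on the added pseudocount, since it was listed at 0 without Dox.

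Markers of the cell types that such aggregates can hold moved with the groups. All 7 retinal progenitor markers rose (4.44% of all tested genes did), and their summed level was 130 to 145 FPKM without Dox and 849 to 1003 FPKM with Dox. In the untreated libraries the defining retinal gene Six6 was listed at 0.01 FPKM, close to absent for tissue labelled as retinal. All 5 tested neuronal markers of 6 fell (4.87% of all tested genes did), from a sum of 146 to 147 FPKM to 82.3 to 86.6 FPKM. Pigment epithelium markers rose in 3 of 3 tested genes of 5 (4.44% of all tested genes did). Their sum went from 2.31 to 2.40 FPKM to 61.2 to 61.9 FPKM, with Tyr listed at 0 in both untreated libraries.

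The brain and neural crest markers went mostly the other way. Of all tested genes 4.44% rose and 4.87% fell, for comparison with the counts that follow. Diencephalic markers fell in 3 of 3 tested genes of 5, from 97.0 to 101 FPKM to 6.20 to 7.36 FPKM. Telencephalic markers rose in 1 and fell in 2 of 4 tested genes of 6, and their sum was 80.4 to 82.7 FPKM without Dox and 20.5 to 26.9 FPKM with Dox. In the untreated libraries 1 gene made up most of the diencephalic sum, and 1 gene most of the telencephalic sum. The falls of these 2 sums therefore mostly follow single genes. Neural crest markers fell in 4 of 5 tested genes of 5, from 36.4 to 36.8 FPKM to 9.29 to 9.65 FPKM. The 6 midbrain and hindbrain markers had 1 tested gene, which did not pass, and sums of 2.65 to 2.90 and 3.73 to 4.36 FPKM. The part of these shifts in the changes of Meis1, Meis2 and Pknox2 was not tested.

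The genes whose profiles lay nearest to each called member were found by the Euclidean distance between log2(FPKM + 1) profiles, each centred on its mean over the 4 libraries. For Meis1 they were Pkdcc, Lpar1 and Id1, at distances of 0.113 to 0.129 log2 units and with log2 fold changes of 2.61, 2.57 and 2.55. For Meis2 they were Cgnl1, Cacna2d1 and Sdf2l1, at distances of 0.0192 to 0.0345. For Pknox2 they were Sall2, Efna5 and Alpl, at distances of 0.0233 to 0.0435. With 4 libraries in 2 groups such nearness mostly restates a fold change of like size.

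Sequence features that bear on the study's enzyme were also counted. GGACT is the pentamer most favoured by the METTL3 complex. The longest coding transcripts of Meis2, Meis3, Pbx2, Pbx4 and Pknox2 held 1.63 to 1.92 per kilobase, above the upper quartile of 1.51 over 11629 tested coding genes. Meis1 held 0.927, Pknox1 0.470 and Pbx3 0.366, below the median of 1.05. The 3 genes that rose thus lay on both sides of the median. The table holds no m6A measurement, and a match is not a methylated site.

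Promoters of Meis1, Meis2, Meis3, Pbx2 and Pbx4 (GRCm38.p6, the 250 bases before the RefSeq start) were searched on both strands. No such window was available for Pbx3, Pknox1 or the called gene Pknox2. The windows of Meis2 (chr2:116064620-116064869), Meis3 (chr7:16175145-16175394) and Pbx2 (chr17:34592009-34592258) lie inside the GENCODE genes given above. Sequence before the outermost GENCODE starts of those genes was thus not searched. The windows of Meis1 (chr11:19018970-19019219) and Pbx4 (chr8:69832374-69832623) lie partly inside their genes. None of the 5 windows held the MEIS core TGACAG, which 15.9% of all 32851 promoters hold. None held the PBX-HOX site TGATNNAT (7.68% of promoters), the homeodomain site TAATTA (4.84%) or the retinoic acid receptor half-site AGGTCA (14.0%). This says only that these letters are not in these windows.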

How the data were processed

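The authors deposited FPKM values, 1 column per library, rounded to 2 decimals. STAR, Cuffdiff and the mm10 build are named in the submitters' processing notes, without versions, and the annotation and strand setting are not given in the sources used here. Columns were matched to samples by library name. The analysis used log2(FPKM + 1). A filter (mean over the libraries of 1 FPKM or more) left 13931 genes, to which limma 3.58.1 (R 4.3.3; lmFit, eBayes with trend, prior 3.50 degrees of freedom) was applied on all 4 libraries without covariates, two-sided, with Benjamini-Hochberg adjustment over all of them. The log2(FPKM + 1) scale understates the change of low genes. Sums per class were compared by an exact permutation test.

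The table holds no counts. Depth was fitted from single-transcript genes of low value (Python 3.11.15, numpy 2.4.6): 77.9% to 79.2% of such values came out within 0.1 of a whole fragment, against 20% by chance. By that depth and the shortest coding transcript that holds the homeobox, the lowest-covered values rest on about 138 fragments (Pknox1, Dox replicate 1) and 424 fragments (Meis1, untreated replicate 2). The homeobox stretches were found by translating GENCODE M21 coding transcripts and searching for a fixed pattern of loop and helix residues at a set distance. Their equal length and part of their identity are therefore set by the search.

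The members and lists were chosen with earlier results of these data known. All 8 members are named, with up to 3 called genes per list by absolute log2 fold change, Pax6, and the 3 nearest profiles per called member. Some genes picked by this rule are not reported here, but they stay in the tests and counts. The procedure was tested on simulated data.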

Additional observations from a re-analysis of the deposited data

How the results depend on the processing

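Across 14 alternatives Meis1 and Meis2 passed the threshold in every limma fit and kept their direction. The log2 fold change of Meis1 ran from 2.03 (pseudocount 5) to 2.91 (pseudocount 0.1) and that of Meis2 from 0.66 to 0.81. Pknox2 kept its direction, but without a filter its value of 0.59 no longer passed (adjusted p = 0.0731 in limma). In the fits that leave out 1 library it ranged from 0.50 to 0.67, with adjusted p from 0.0437 to 0.104. Those fits have 1 library in a group, assumed to vary like the other group. Meis3, Pbx2, Pbx3, Pbx4 and Pknox1 passed in none of the alternatives run and changed sign in none. Pknox1 was not tested at a minimum mean of 5 FPKM.

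Over all genes, 336 were called higher and 409 lower without a filter, and 408 and 413 with a minimum mean of 5 FPKM, which tests fewer genes. Leaving out 1 library gave 262 to 320 higher and 331 to 377 lower, from fewer samples. A replicate block by number gave calls for 532 genes higher and 602 lower, and no call of the 8 members changed. Same-numbered libraries did not deviate together (correlation -0.04), and the main fit did not pair them. That value does not show whether they were cultured or prepared together. The median over all genes shifted by at most 0.0207 under any scaling. Over the other gene lists together, 11 genes were called higher and 8 lower. These counts fell to 8 and 6 without a filter, to 11 and 7 with the replicate block, and to between 8 and 9 higher and between 7 and 8 lower when 1 library was left out. The calls lost in these settings were those of Crabp2, Efnb1, Efnb2, Rdh10 and Stra6, and the limma adjusted p without a filter was 0.0950, 0.0505, 0.119, 0.102 and 0.107 in that order. The median of the other TALE genes was -0.24 without a filter, -0.72 with a pseudocount of 5 and -2.08 with a pseudocount of 0.1, and that of the retinoic acid genes 0.23, 0.42 and 0.87. By the fitted depth, fragments were fewest for Pknox1 (138 to 160), untreated Meis1 (424 and 437) and Pbx4 (443 to 595).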
